A study of Canis lupus familiaris with 12 samples.

Results

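The members described here are 7 canine miRNAs that are known as markers of blood cells: cfa-miR-142, cfa-miR-144, cfa-miR-150, cfa-miR-223, cfa-miR-451, cfa-miR-486 and cfa-miR-486-3p. They were found by their exact names, and all 7 were among the 453 miRNAs of the count table. They come from 6 precursors, since miR-486 and miR-486-3p are the 2 arms of a single hairpin. The study set CHMm, a line grown from a metastasis of a dog's mammary gland tumor, against CHMmTAM, its tamoxifen (TAM)-resistant derivative, with 3 small RNA libraries per line. CHMmTAM had been selected in rising TAM for 10 months until it grew at 10 μM, was then held at 10 μM for 1 month, and was kept without drug for 1 week. Both lines were grown in phenol-red-free medium with 10% charcoal-stripped serum. CHMmTAM is a single derived line, and the labels do not say whether the 3 libraries of a line came from separate cultures. The p-values therefore measure no spread beyond that between these libraries, and the fit pooled this spread over all tested miRNAs. A difference between the lines cannot be told apart from drift over the months of culture.

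A miRNA is cut from a hairpin precursor and loaded into an Argonaute protein, which it guides to matching messenger RNAs. Several miRNAs are made almost only in blood cells. miR-142 is made across the haematopoietic lineages, miR-223 marks myeloid cells and granulocytes above all, and miR-150 marks mature lymphocytes, where it restrains the transcription factor MYB. miR-144 and miR-451 are cut from a shared erythroid transcript that GATA1 switches on, and miR-451 is known for maturing through cleavage by AGO2 without Dicer. miR-486 lies in the gene of ankyrin 1 (ANK1), a red-cell membrane protein, and is made in red cell precursors and in muscle.

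The counts summed to between 7512659 and 12482211 per library, and 3 counts, the smallest number read here as a level, correspond to between 0.240 and 0.399 CPM (counts scaled by the total count of their own library). The most abundant row, miR-21, took from 50.2% to 54.5% of the counts of a library. The 7 epithelial markers fixed for the check of cell type, the miR-200 family with miR-203 and miR-205, were all present and together reached from 21958 to 26853 CPM, with miR-200c at 12807 CPM in CHMm and 12272 CPM in CHMmTAM. The whole group of blood-cell miRNAs stayed under 20 CPM in every library. The lymphocyte marker miR-150 was at 0 in 1 library and at 3 counts or fewer in the others. Of the erythroid pair, miR-144 was likewise at 0 in 1 library and at 3 counts or fewer in the others, whereas miR-451 had from 5 to 18 counts in every library. The label of blood-cell miRNAs is used here for what the members are known for, not for the cells measured. In such bulk libraries, fewer cells of a type and less RNA per cell cannot be told apart.

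Summed over the 7 members, the 3 CHMm libraries held 59, 84 and 54 counts, and the 3 CHMmTAM libraries held 221, 220 and 143 counts. As shares of all counts these were 7.85, 7.34 and 6.13 CPM in CHMm and 17.7, 19.9 and 17.6 CPM in CHMmTAM. The lines did not overlap, and the mean (± SD, n = 3) was 7.11 ± 0.886 CPM for CHMm and 18.4 ± 1.30 CPM for CHMmTAM, 2.59 times as much. The highest upper bound in CHMm was 10.1 CPM and the lowest lower bound in CHMmTAM was 14.9 CPM (95% Wilson intervals, which cover counting error only). The 2 arms of miR-486 made up from 33.3% to 39.0% of the members' counts in CHMm and from 55.2% to 59.7% in CHMmTAM. Without these arms, the other 5 members summed to 4.51 ± 0.570 CPM in CHMm and 7.83 ± 0.683 CPM in CHMmTAM, a ratio of 1.74. These sums are a description of the chosen members and carry no test.

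**Figure D1:**
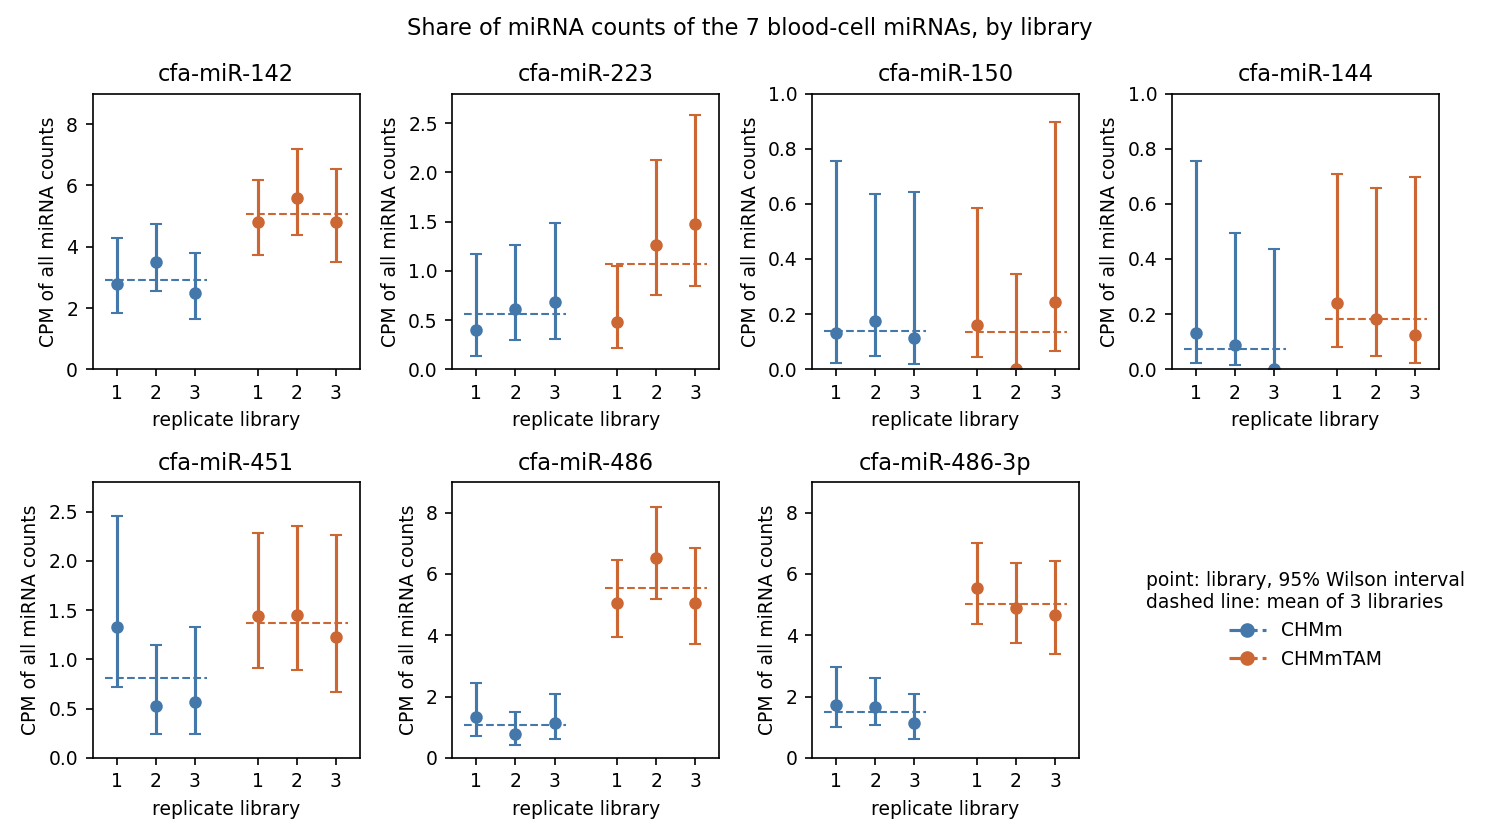
Each panel plots 1 member as CPM of all miRNA counts (vertical axis, linear from 0, with a scale of its own for abundant and rare members) in the 3 CHMm and the 3 CHMmTAM libraries (horizontal axis). Points are libraries with 95% Wilson intervals and dashed lines are means of 3 libraries. miR-486, miR-486-3p and miR-142 lie higher in all 3 CHMmTAM libraries, whereas miR-223, miR-150, miR-144 and miR-451 overlap between the lines.

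miR-486, the arm entered in the table without a suffix, was counted 10, 9 and 10 times in the CHMm libraries but 63, 72 and 41 times in the CHMmTAM libraries. After TMM normalization the values were 1.37, 0.775 and 1.12 CPM in CHMm and 4.93, 6.53 and 5.15 CPM in CHMmTAM. Every CHMmTAM library was above every CHMm library. The log2 fold change was 2.40 (standard error 0.30, 95% interval from 1.81 to 2.98), 5.26-fold higher in CHMmTAM, with an FDR of 2.74e-14 (edgeR quasi-likelihood test, Benjamini-Hochberg adjusted over the 284 miRNAs tested). Its fold change was the 3rd largest upward among the 284. In abundance it moved from place 209 in CHMm to place 178 in CHMmTAM, so it was still among the rarer miRNAs of the resistant line.

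miR-486-3p, the opposite arm of the hairpin, was counted 13, 19 and 10 times in CHMm, and 69, 54 and 38 times in CHMmTAM. These correspond to 1.78, 1.64 and 1.12 normalized CPM in CHMm and 5.40, 4.90 and 4.77 normalized CPM in CHMmTAM. Again the lines did not overlap. The log2 fold change was 1.74 (standard error 0.28, 95% interval from 1.19 to 2.29), 3.34-fold higher in CHMmTAM, at an FDR of 5.00e-09 (same test). With the counts of both arms summed before the fit, the precursor reached 23, 28 and 20 in CHMm against 132, 126 and 79 in CHMmTAM, and the log2 fold change was 2.05 (standard error 0.21). The 2 calls are not independent evidence, because both rows are products of 1 precursor.

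The 3p arm held 13 of 23, 19 of 28 and 10 of 20 reads of the precursor in the CHMm libraries, a mean of 58.1% ± 9.04 (SD, n = 3). In the CHMmTAM libraries it held 52.3%, 42.9% and 48.1%, a mean of 47.7% ± 4.72 (SD, n = 3). The lowest CHMm library lay below the highest CHMmTAM library, so that the arm shares overlapped. Over the summed counts of a line, the 3p share was 59.2% of 71 reads in CHMm (95% Wilson interval from 47.5% to 69.8%) and 47.8% of 337 reads in CHMmTAM (from 42.5% to 53.1%). Neither arm dominated in either line. The intervals of the lines overlapped, which does not show that the shares were equal, and a shift between the arms was not tested. The difference between the fold changes of the arms was not tested in a model either.

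miR-142, the marker shared by the haematopoietic lineages, was the most abundant member in CHMm. It was read 21, 40 and 22 times in CHMm, then 60, 62 and 39 times in CHMmTAM, or 2.87, 3.44 and 2.46 against 4.70, 5.62 and 4.90 normalized CPM. All 3 CHMmTAM libraries lay above all 3 CHMm libraries. The log2 fold change was 0.77 (standard error 0.24, 95% interval from 0.30 to 1.24), with an FDR of 0.00359 in the edgeR test, so miR-142 passed the FDR threshold of 0.05 but not the fold-change threshold of 1 on the log2 scale. Under upper-quartile scaling its FDR was 0.0537 at a log2 fold change of 0.53, and the median of all tested miRNAs moved from 0.06 to -0.18. Over its 15 alternatives the FDR ranged from 0.00164 to 0.0537.

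miR-451, the AGO2-cut erythroid miRNA, was counted 10, 6 and 5 times in CHMm and 18, 16 and 10 times in CHMmTAM, giving 1.37, 0.517 and 0.559 against 1.41, 1.45 and 1.26 normalized CPM. CHMm replicate 1 lay within the range of CHMmTAM, and the other CHMm libraries lay below it. The log2 fold change was 0.85 (standard error 0.47, 95% interval from -0.06 to 1.77, FDR = 0.130 in the edgeR test), so no difference was called. The call depended on CHMm replicate 1: without that library the log2 fold change was 1.35 and the FDR 0.0196, past both thresholds, while the fits without any other library gave from 0.58 to 0.92 and no call. miR-144, its partner on the transcript, was counted 1, 1 and 0 times in CHMm, and 3, 2 and 1 times in CHMmTAM. Its 8 counts in all fell short of the 10 required for the test, and with every library at 3 counts or fewer no fold is given. Over a line, 21 counts of miR-451 stood against 2 of miR-144 in CHMm, and 44 against 6 in CHMmTAM. For the sum of both, the log2 fold change came to 0.91 (standard error 0.44) and the FDR to 0.0843 in the same test, still without a call.

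miR-223, the granulocyte and myeloid marker, was counted 3, 7 and 6 times in CHMm, and 6, 14 and 12 times in CHMmTAM. CHMmTAM replicate 1, at 0.470 normalized CPM, lay inside the CHMm range from 0.410 to 0.671 normalized CPM, and the other CHMmTAM libraries lay above it at 1.27 and 1.51. The log2 fold change was 0.82 (standard error 0.54, 95% interval from -0.24 to 1.87, FDR = 0.219 in the edgeR test). The interval reaches from a slightly lower level to more than the fold-change threshold, so the depth does not settle whether miR-223 differed. Without CHMmTAM replicate 1 the log2 fold change was 1.26 with an FDR of 0.0599, still without a call. miR-150, the lymphocyte marker, was counted 1, 2 and 1 times in CHMm, and 2, 0 and 2 times in CHMmTAM, 4 counts in each line. It was not tested, and no level above the limit of 3 counts was detectable in any library.

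Of the 7 members, 5 were tested, and each of the 5 reached the minimum of 10 counts in CHMm alone, so none entered only through its level in CHMmTAM. All 5 log2 fold changes were above 0, with a median of 0.85 beside 0.06 over all 284. Past both thresholds and higher in CHMmTAM were 2 of the 5, the 2 arms of miR-486, where 5.99% of all tested miRNAs were called in that direction. Among the 127 tested miRNAs under 10 CPM on average, a limit chosen after the values were seen, 9.45% were called in that direction. At an FDR below 0.05 alone, 3 of the 5 were higher, beside 25.4% of all tested miRNAs. The same 3 showed no overlap between the lines, as 28.9% of all tested miRNAs did with CHMmTAM higher. None of the 5 was lower, beside 5.28% of all tested miRNAs that were lower past both thresholds and 18.7% that were lower by FDR alone. With 3 libraries a line, the smallest two-sided p of an exact permutation test is 0.1, so separation alone cannot reach 0.05 here.

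**Figure D2:**
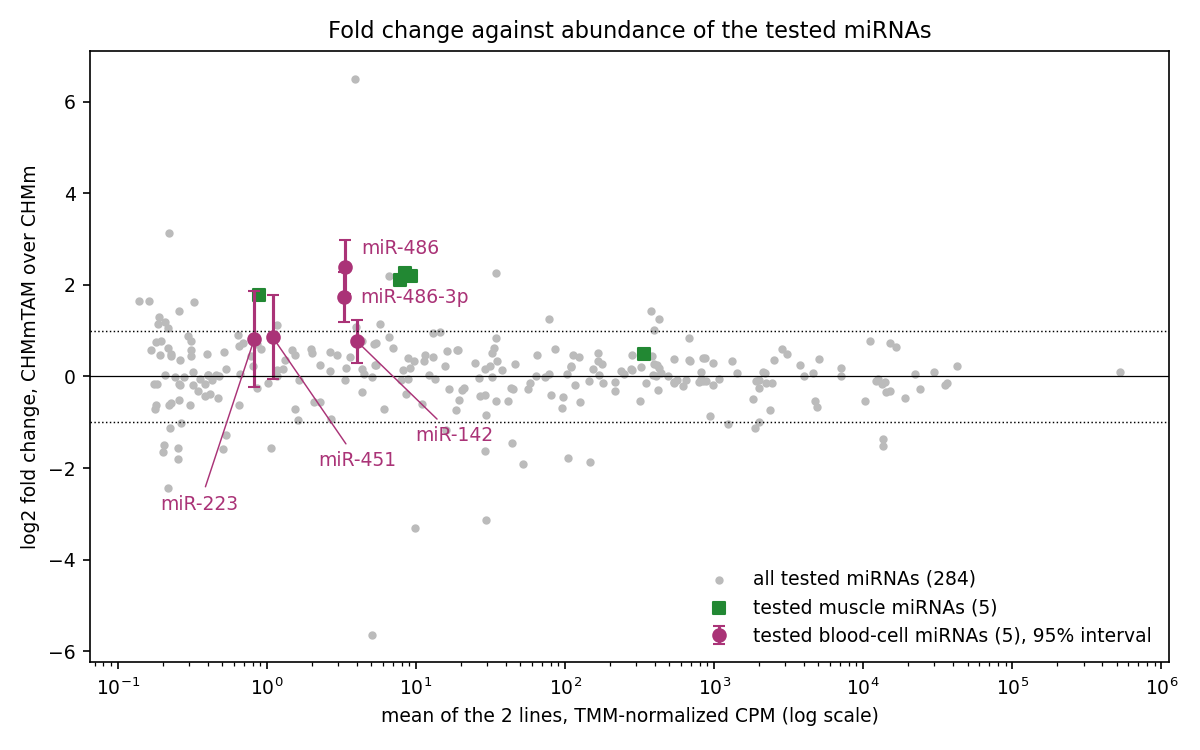
Each point is 1 of the 284 tested miRNAs, by its mean normalized CPM over the 2 lines (horizontal axis, log scale) and its log2 fold change of CHMmTAM over CHMm (vertical axis). Dotted lines mark the fold-change thresholds, the 5 tested members carry 95% intervals, and green squares are the 5 tested muscle miRNAs. miR-486 at 2.40 and miR-486-3p at 1.74 lie above the upper threshold with their whole intervals, and the intervals of miR-223 and miR-451 include 0.

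The members were also ordered by level within each line. In CHMm the order by mean share was miR-142, miR-486-3p, miR-486, miR-451, miR-223, miR-150 and miR-144, from 2.93 down to 0.0735 CPM. Neighbours in this order overlapped between libraries except at the steps from miR-142 to miR-486-3p and from miR-223 to miR-150. In CHMmTAM the order was miR-486, miR-142, miR-486-3p, miR-451, miR-223, miR-144 and miR-150, from 5.53 down to 0.135 CPM. There the first 3 overlapped each other, with means of 5.53, 5.07 and 5.03 CPM, and stood apart from miR-451 at 1.37 CPM, and miR-223 stood apart from miR-144. miR-150 and miR-144 overlapped in both lines at 3 counts or fewer, so their order is not read. These are shares of reads, and the efficiency of library construction for each sequence was not measured.

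The spread within a line was set against the spread that counting alone gives. The chi-square of a member's counts over the 3 libraries of a line, given the library totals, ranged from 0.069 to 2.96 per degree of freedom over the 14 combinations of member and line. The largest values were 2.96 for miR-223 in CHMmTAM and 2.26 for miR-451 in CHMm. For miR-486 it was 0.696 in CHMm and 1.39 in CHMmTAM.

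The tested miRNAs nearest to a member were found by the distance between centred log2 CPM profiles over the 6 libraries. Those nearest to miR-486 were miR-1 at a distance of 0.382, miR-133c at 0.511 and miR-34b at 0.648, with log2 fold changes of 2.19, 2.26 and 2.19. miR-1 and miR-133c are known as muscle miRNAs and miR-34b as a miRNA switched on by p53. Those nearest to miR-486-3p were miR-10b at 0.678, miR-181a at 0.709 and miR-133b at 0.756, with log2 fold changes of 1.43, 1.26 and 1.79. The distance between miR-486 and its own second arm was 1.07, and that between miR-486 and miR-451 was 1.92. Counting error enters these distances, since miR-451 had from 5 to 18 counts in a library and miR-486 from 9 to 72. The 6 points share 2 lines, so a near profile has a similar fold change by construction. The distances are a description and carry no test.

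Since miR-486 is also made in muscle, the list of muscle miRNAs was read beside it. Of its 8 members 5 were tested, and all 5 were higher in CHMmTAM at an FDR below 0.05, beside 25.4% of all tested miRNAs. Their median log2 fold change was 2.11. Past both thresholds were 4 of them, namely miR-1, miR-133a, miR-133b and miR-133c, beside 5.99% of all tested miRNAs. By name, miR-133a, miR-133b and miR-133c are of the same family, and the treatment of reads that match several miRNAs is not given. These calls are therefore not independent evidence. miR-1 was counted 28, 35 and 30 times in CHMm, and 188, 192 and 107 times in CHMmTAM. miR-499, at a log2 fold change of 0.48, supplied most of the list's summed level, which ran from 284 to 309 CPM in CHMm and from 430 to 442 CPM in CHMmTAM. Without miR-499 the sum ran from 9.08 to 10.9 CPM in CHMm and from 42.3 to 45.0 CPM in CHMmTAM. The skeletal muscle miRNA miR-206 had at most 3 counts in a library, the cardiac miR-208a had none, and miR-208b had 3, 1 and 0 counts in CHMm and none in CHMmTAM. The part of these muscle miRNAs in the difference of miR-486 was not tested.

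Markers of other cells were read in the same way. The liver miRNA miR-122 was counted 18, 38 and 13 times in CHMm, and 31, 39 and 37 times in CHMmTAM, which overlap, and its log2 fold change of 0.47 did not pass the test (FDR = 0.168, edgeR). The endothelial miR-126 had 0 counts in all 3 CHMm libraries and 1, 3 and 1 in CHMmTAM, at or under the limit of 3 counts. Of the 4 stromal miRNAs, miR-199 was lower in CHMmTAM at a log2 fold change of -0.85 and the other 3 did not pass the FDR threshold. The summed stromal level ran from 38.6 to 48.3 CPM in CHMm and from 23.8 to 28.1 CPM in CHMmTAM. Of the 7 epithelial miRNAs, 3 were higher and 2 lower at an FDR below 0.05, beside 25.4% and 18.7% of all tested miRNAs. None of the 7 passed the fold-change threshold. The part of these markers in the differences of the members was not tested.

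Other miRNAs with a role in blood-cell development, which many other tissues also make, went in both directions. Of 26 listed, 25 were tested. At an FDR below 0.05, 9 were higher and 7 lower in CHMmTAM, beside 25.4% and 18.7% of all tested miRNAs. The median log2 fold change was 0.05 beside 0.06 over all tested. Of all tested miRNAs, 5.99% were higher and 5.28% lower past both thresholds. Past both thresholds, miR-181a, which tunes the sensitivity of T cells, was at 1.26 and miR-10a at 1.12, while miR-221 at -1.52 and miR-222 at -1.36, which restrain the receptor KIT in red cell precursors, and miR-125a at -1.13 were lower. miR-10a rests on at most 24 counts in a library, and its normalized CPM did not overlap between the lines, though the highest CHMm library at 1.03 lay close to the lowest CHMmTAM library at 1.09. miR-155, a miRNA of activated lymphocytes and macrophages, was far more abundant than any member, at 2957 CPM in CHMm and 1787 CPM in CHMmTAM, a log2 fold change of -0.73. The most abundant of the list, miR-24 at 28690 CPM in CHMm, did not pass the FDR threshold, at a log2 fold change of 0.09, while miR-27a and miR-125b, the next most abundant of those not past both thresholds, were at -0.27 and -0.12.

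A second list held 14 miRNAs that are abundant in red cells and plasma but are made in most other cells as well, and 4 of them are also on the list of blood-cell development. Of the 13 tested, 7 were higher and none lower in CHMmTAM at an FDR below 0.05, beside 25.4% and 18.7% of all tested miRNAs. None passed the fold-change threshold. The median log2 fold change was 0.20. The largest was 0.77 for miR-183, beside 0.72 for miR-96 and 0.64 for miR-182, which share a cluster. Outside that cluster miR-20b, miR-106b, miR-185 and miR-101 were higher at an FDR below 0.05, with log2 fold changes of 0.58, 0.41, 0.34 and 0.20. miR-16 and miR-92a, which red cells hold in large amounts, had the lowest log2 fold changes of the 13, -0.08 and 0.003. They did not pass the test, with FDRs of 0.327 and 0.986 (edgeR). miR-363 had 1 count in all 6 libraries together. The list's summed level ran from 46670 to 48160 CPM in CHMm and from 67889 to 68461 CPM in CHMmTAM. Without miR-182, miR-183 and miR-96, the other 11 summed to between 14624 and 14819 CPM in CHMm and between 14745 and 16074 CPM in CHMmTAM, which overlap. The members together reached at most 19.9 CPM in a library, so levels as high as these could not show a change of that size. The part of this list in the differences of the members was not tested.

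**Figure D3:**
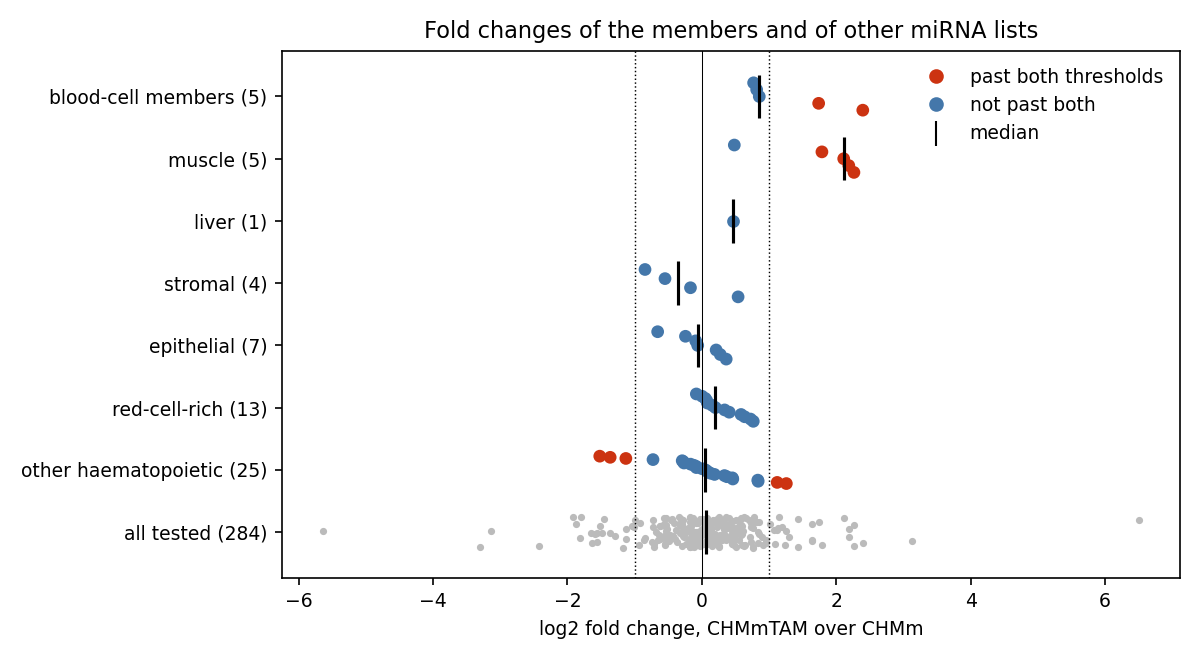
Log2 fold changes of CHMmTAM over CHMm (horizontal axis) for the tested miRNAs of each list, with the number tested in brackets and all 284 tested miRNAs at the bottom. Red points passed both thresholds, bars are medians and dotted lines mark the fold-change thresholds. The members have a median of 0.85 and the muscle miRNAs one of 2.11, and the 25 other haematopoietic miRNAs lie on either side of 0.

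By name, all 7 members were matched to genes of RefSeq on the dog assembly UU_Cfam_GSD_1.0. There MIR486 lies within the span of ANK1, beside NKX6-3. MIR144 and MIR451 are direct neighbours, beside ERAL1 and FLOT2. MIR142 lies next to TSPOAP1, and MIR223 within the span of VSIG4. Apart from the 2 arms of miR-486 and the pair miR-144 and miR-451, no members were neighbours. The submitters' processing notes name another build, so no coordinates are given, and mature sequences were not used here. Messenger RNA of ANK1 was not analysed here either.

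**Figure D4:**
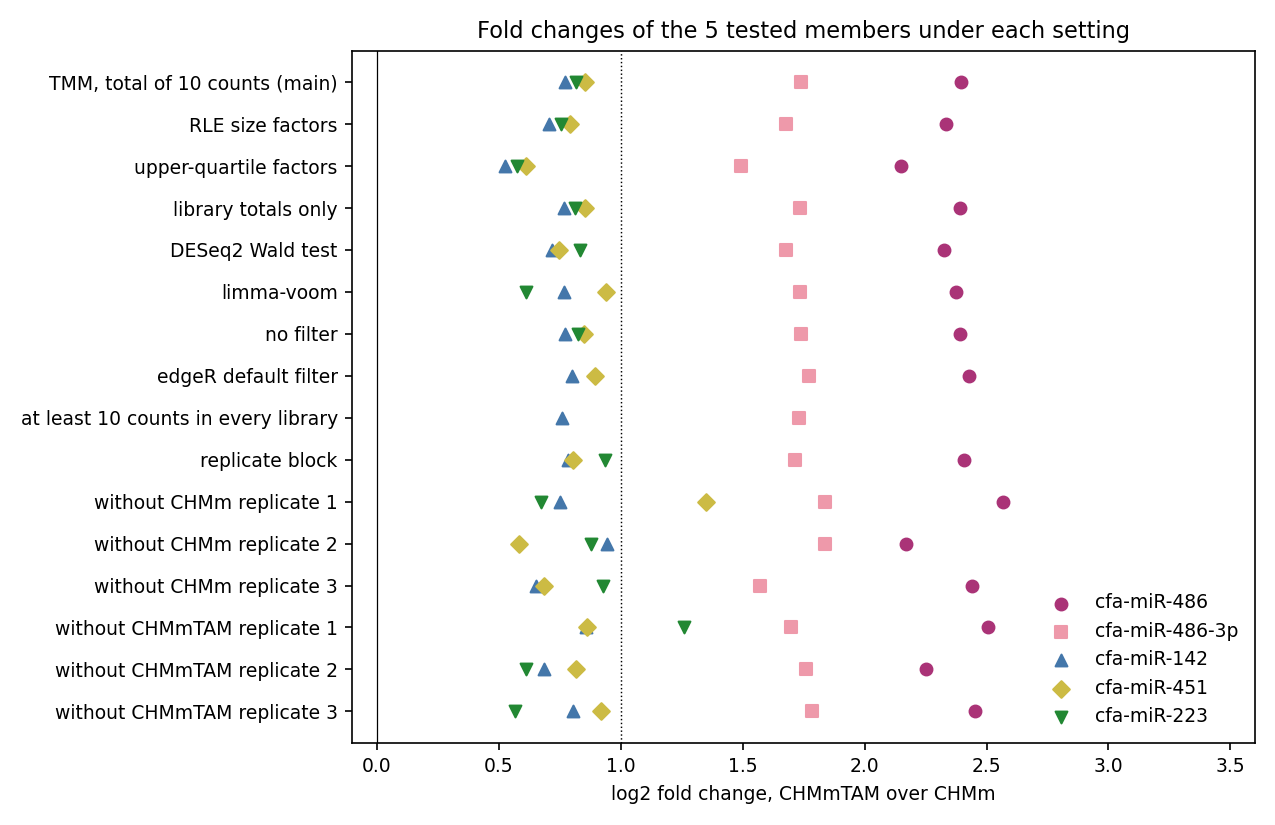
Log2 fold changes of CHMmTAM over CHMm (horizontal axis) of the 5 tested members under the setting of the text and each alternative other than summed counts (vertical axis), with the fold-change threshold dotted and no point where a miRNA was not tested. miR-486 stays between 2.15 and 2.57 and miR-486-3p between 1.495 and 1.84, and miR-451 and miR-223 pass 1 in 1 setting each, without CHMm replicate 1 and without CHMmTAM replicate 1.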

How the data were processed

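The deposited table holds unnormalized counts for each canine miRNA in the 6 small RNA libraries. Total RNA was extracted with Trizol, miRNA was purified and HiSeq sequencing was used. The submitters' processing notes name BWA, HISAT2 2.0.4 and CanFam3.1 without a role. The miRNA database, the counting tool, trimming and the treatment of reads that match several miRNAs are not given in the sources used here, and could move counts between similar miRNAs. Libraries were assigned to lines by their titles.

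miRNAs whose counts summed to 10 or more were kept (284 of 453), scaled by TMM and compared by the quasi-likelihood test of edgeR 4.0.16 in R 4.3.3, without a block. The FDR is the Benjamini-Hochberg value over the 284. Called means past the study's thresholds, an FDR of 0.05 and a log2 fold change of 1 in size. The study names no test for this comparison. Standard errors come from the fold change and its F statistic, and 95% intervals from the t distribution with the fit's degrees of freedom. The degrees of freedom were 1136 for every miRNA, since the quasi-likelihood spread was pooled over the 284. A small FDR is therefore not evidence from the 6 libraries of that miRNA alone. Shares are of all counts, with Wilson intervals (SciPy 1.17.1), which cover counting error only. Profile distances used log2(CPM + 0.1). The fit was also run on counts simulated with its own estimated dispersions, which cannot check those dispersions.

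The members and lists were chosen with earlier results of these data known. Named miRNAs are the members, the called and the most abundant miRNAs of the other lists, and the 3 nearest profiles of each called member. Outside this rule, miR-16, miR-20b, miR-92a, miR-101, miR-106b, miR-155, miR-185, miR-208a and miR-363 were chosen with their values in view. Alternatives were RLE and upper-quartile factors, library totals, DESeq2 1.42.0, limma-voom (limma 3.58.1), 3 other filters, a replicate block, each library left out, other thresholds, summed arms and shares without miR-21. Any pair of libraries of a line differed beyond sampling noise, at 26.3 or more chi-square units for each degree of freedom, and each was counted as a sample.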

Additional observations from a re-analysis of the deposited data

How the results depend on the processing

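The 2 calls among the members were kept under every alternative that tested both rows. With at least 10 counts in every library only 1 was called, because miR-486 had 9 counts in CHMm replicate 2 and was not tested. Leaving out 1 library gave from 2 to 3 members. In all, 32 miRNAs passed both thresholds, beside 125 by FDR alone and 21 when tested against a 2-fold change, and the other settings gave from 24 to 34. Upper-quartile factors made 35.3% of the calls higher in CHMmTAM, against 53.1%. Without miR-21 in the denominator, the members' share was 14.5 CPM in CHMm and 40.01 CPM in CHMmTAM. The log2 fold change of miR-486 ran from 2.05, with both arms summed, to 2.57 and that of miR-486-3p from 1.495 to 1.84 over 15 alternatives each. The FDRs moved more. Without CHMm replicate 2 the edgeR test gave the highest, 1.6e-05 for miR-486 and 8.2e-05 for miR-486-3p. Of 73 values of the 5 tested members, 72 kept their direction and their call by both thresholds together, 0 reversed and 1 gained the call, miR-451 without CHMm replicate 1. Single thresholds were crossed without a change of call by miR-142, at an FDR of 0.0537 under upper-quartile factors, and by miR-223, at 1.26 without CHMmTAM replicate 1. Blocking on the replicate number, 31 miRNAs and the same 2 members were called, with miR-486 at 2.41 and miR-486-3p at 1.72. Deviations of same-numbered libraries from their line had correlations of 0.062, 0.46 and -0.31, and 1 of 3 CHMm libraries correlated best with its own number, so the numbers were not taken as pairs. Depth limits miR-144, miR-150, miR-223 and miR-451.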
